A study of Mus musculus with 6 samples.

Results

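Sord encodes sorbitol dehydrogenase, the enzyme that closes the polyol pathway, and its transcript was followed here across 6 whole hearts of mice. It is 1 gene of 78409 in the deposited table (ENSMUSG00000027227) and was picked because its level was clearly lower in every knockout heart. Its own levels are therefore a description with no test, and the tests below are of the genes around it. The mice were 11 months old. The 3 Ybx1cmKO hearts carried a cardiomyocyte-specific knockout of Ybx1, the gene of a Y-box protein that binds RNA and DNA, and the 3 others came from littermates labelled Control. The Cre driver, the floxed allele and the genotype of the controls beyond that label are not given in the sources used here, and other cells of the heart keep the gene by design. Each heart gave 1 library of oligo(dT)-primed cDNA with 12270796 to 15141525 counts.

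In the polyol pathway aldose reductase (Akr1b1) reduces glucose to sorbitol at the cost of NADPH, and sorbitol dehydrogenase then oxidises sorbitol to fructose and passes the hydrogen to NAD+. The pair thus turns glucose into fructose without a phosphorylated intermediate and links the NADPH and NADH pools of the cytosol. Sorbitol dehydrogenase is a zinc enzyme of the medium-chain dehydrogenase family and is most abundant in liver, kidney and seminal vesicle. In rat hearts the pathway has been studied for its flux during ischaemia, and in people loss of both SORD copies causes a hereditary neuropathy.

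The start of Sord is shown because the knocked-out gene is named for the Y-box, a sequence built on an inverted CCAAT. The sequence is the RefSeq window of 250 bases before to 50 bases after the annotated start, on the plus strand of GRCm38.p6 at chr2:122234589-122234888, while the authors' build was mm39. Capitals mark the GC box GGGCGG and the CCAAT box, each searched on both strands. The start in GENCODE M21 lies 90 bases upstream of the RefSeq start, inside the window. The windows of 2 genes with higher mean levels in the knockout hearts, Akr1b8 at chr6:34353896-34354195 and Cryz at chr3:154596947-154597246 and chr3:154596461-154596760 (a pair of RefSeq starts), are set beside it, all on the plus strand.
Sord: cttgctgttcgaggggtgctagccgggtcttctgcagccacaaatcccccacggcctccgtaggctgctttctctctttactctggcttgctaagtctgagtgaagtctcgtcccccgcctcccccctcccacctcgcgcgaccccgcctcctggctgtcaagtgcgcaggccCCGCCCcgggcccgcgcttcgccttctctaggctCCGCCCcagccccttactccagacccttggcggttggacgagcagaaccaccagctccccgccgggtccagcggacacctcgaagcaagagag
Akr1b8: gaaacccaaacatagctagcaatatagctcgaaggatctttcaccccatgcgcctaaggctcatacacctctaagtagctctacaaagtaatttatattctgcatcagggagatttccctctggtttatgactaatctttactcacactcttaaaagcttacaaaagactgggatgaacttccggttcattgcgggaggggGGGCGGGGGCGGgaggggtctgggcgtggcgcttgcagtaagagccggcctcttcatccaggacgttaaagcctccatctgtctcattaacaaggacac
Cryz, first window: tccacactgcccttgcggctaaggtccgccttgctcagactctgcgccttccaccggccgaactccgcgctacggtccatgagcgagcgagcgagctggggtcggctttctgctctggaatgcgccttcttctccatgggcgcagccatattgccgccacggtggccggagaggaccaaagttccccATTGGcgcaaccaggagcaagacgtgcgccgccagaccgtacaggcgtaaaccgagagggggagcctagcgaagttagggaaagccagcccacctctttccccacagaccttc
Cryz, second window: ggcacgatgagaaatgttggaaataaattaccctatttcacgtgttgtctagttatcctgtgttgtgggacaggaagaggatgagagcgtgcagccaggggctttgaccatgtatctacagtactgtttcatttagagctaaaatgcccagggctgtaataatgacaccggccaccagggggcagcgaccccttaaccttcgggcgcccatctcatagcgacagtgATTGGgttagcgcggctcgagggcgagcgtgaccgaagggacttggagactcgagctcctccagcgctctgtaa

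The Sord window was 66.7% G and C, where the median of all windows was 52.7%. It held 2 GC boxes, beginning 77 and 43 bases before the RefSeq start, and no CCAAT box. Each Cryz window held 1 CCAAT box, and the Akr1b8 window held 2 GC boxes side by side. Of all 32851 windows of this length 37.4% held a CCAAT box and 35.7% a GC box, and of the 12045 windows of tested genes 37.1% held a CCAAT box and 62.0% a GC box. Among the 15 other tested genes of the polyol and fructose lists, 12 had a window, and 4 of these held a CCAAT box and 6 a GC box. Such matches describe letters only.

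Sord was lower in all 3 knockout hearts than in any control heart. It had 23.8, 34.5 and 26.5 normalised CPM (CPM, counts relative to the library total after scaling by TMM, a composition factor) in Ybx1cmKO hearts 1, 2 and 3, against 73.9, 70.4 and 78.4 CPM in Control hearts 1, 2 and 3. The groups left a gap of 35.9 CPM between the highest knockout heart and the lowest control heart. The means were 28.3 ± 5.54 CPM in knockout hearts and 74.3 ± 4.03 CPM in control hearts (SD, n = 3 each), so the knockout mean was 38.1% of the control mean. Over the 9 pairs of a knockout and a control heart the ratio ran from 0.304 to 0.490. The log2 fold change of edgeR's fit was -1.39. Groups lay apart with knockout lower in 5.84% of the 13717 tested genes, and nothing is read from this for Sord, which was chosen for it.

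The counts behind these levels were 350.5, 454.5 and 477 in the knockout hearts and 914, 762 and 1182.5 in the control hearts. At these counts the counting error of a single library was 4.58% to 5.34% in knockout and 2.91% to 3.62% in control hearts, and it covers counting only, since reads carried no molecular identifiers. The spread between hearts was 19.6% of the mean in knockout and 5.43% in control hearts, given as a description. Heart 2 was the highest of the knockout hearts and the lowest of the controls. The authors' deposited CPM, without a composition factor, were 26.0, 31.0 and 31.5 in knockout hearts and 74.5, 56.6 and 81.4 in control hearts. On that scale the groups were also apart, with the spread between hearts larger in the control hearts (18.1% of the mean) than in the knockout hearts (10.2%). In 3 libraries the Sord count ended in a fraction of a read, and how reads matching several places were counted is not given in the sources used here.

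**Figure D1:**
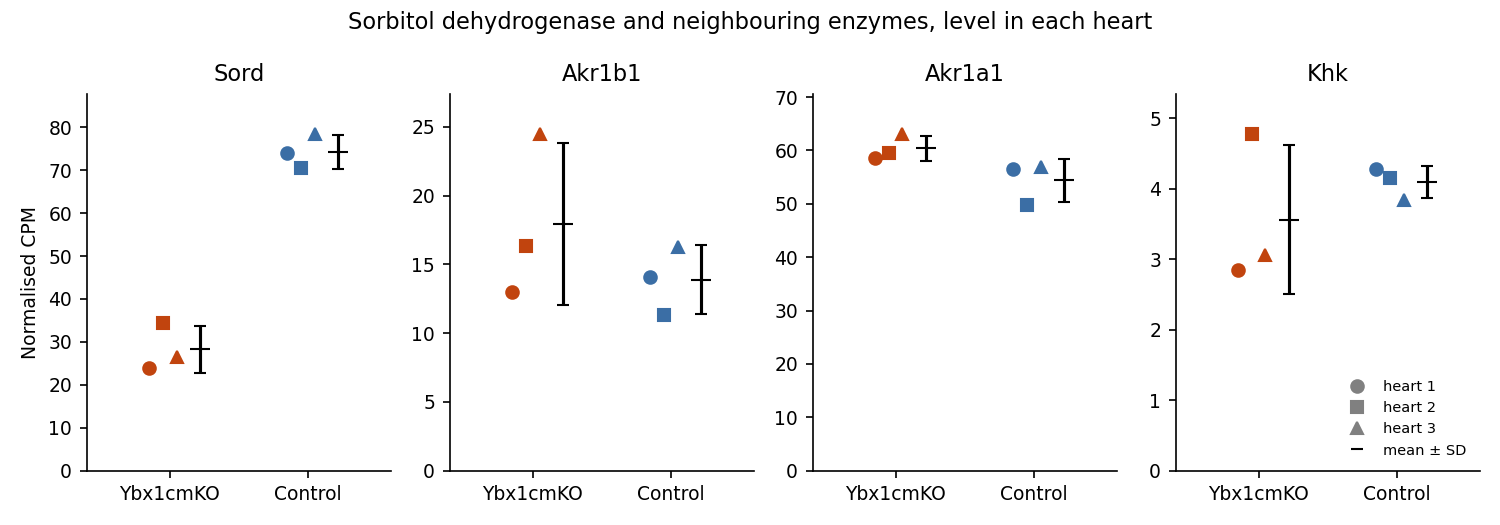
Normalised CPM of Sord, of Akr1b1 and Akr1a1, which make sorbitol or related polyols, and of the fructose kinase gene Khk in each heart, with Ybx1cmKO left of Control; each panel has its own vertical axis from 0, and black marks give mean ± SD of 3 hearts. The 3 knockout hearts sit at 23.8 to 34.5 CPM for Sord, all below the controls at 70.4 to 78.4 CPM, while the groups overlap for Akr1b1 and Khk.

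Among genes of like level the fold change of Sord was the lowest, a rank that carries the choice of Sord with it and has no test. Of 1522 tested genes whose control mean lay within 2-fold of that of Sord, none had a lower log2 fold change, and the next was Lgals4 at -1.30. Over all tested genes 37 had a lower fold change, with a median control level of 3.23 CPM. The genes among them with at least 10 CPM in control hearts were 6, namely Ybx1, Acta1, Tmem82, Mir6236, Gm14769 and Mhrt, and only in Ybx1 and Tmem82 did the groups not overlap. These names follow from their values and are given as a description.

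**Figure D2:**
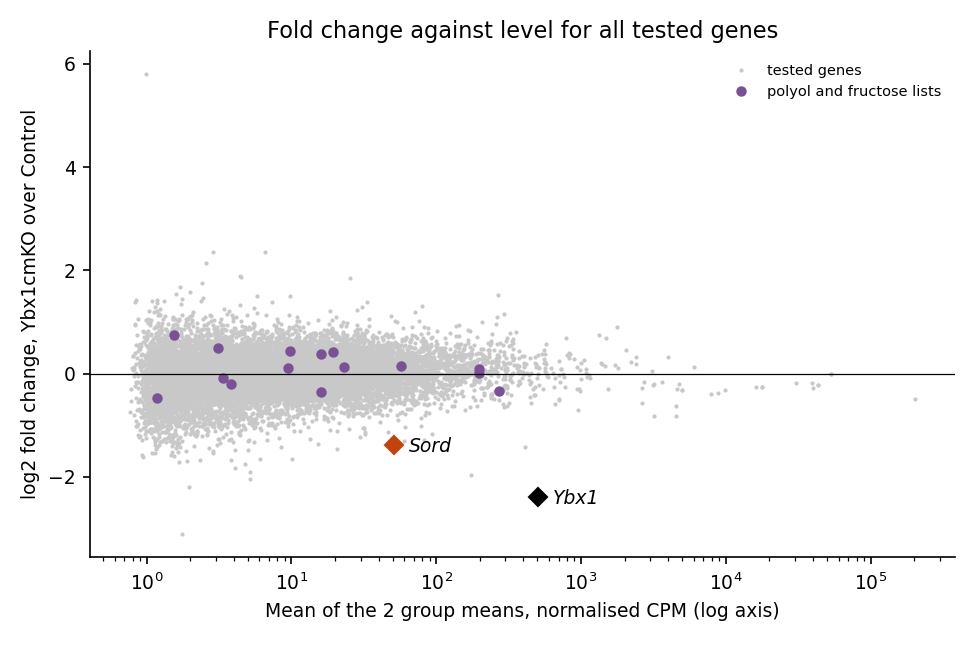
The log2 fold change, Ybx1cmKO over Control, against the mean level in normalised CPM (log axis) for the 13717 tested genes (grey), the 15 other tested genes of the polyol and fructose lists (purple), Sord and Ybx1 (diamonds). Sord lies at -1.39, and the polyol and fructose genes lie between -0.47 and 0.75.

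The targeted gene and the composition of the libraries were set beside these levels. Ybx1 had 203, 172 and 110 CPM in knockout hearts 1, 2 and 3 and 851, 813 and 898 CPM in control hearts. The knockout heart with the least Ybx1, heart 3, was not the one with the least Sord. Library 3 of the knockout stood apart, since mitochondrial rRNA took 10.7% of its reads and 20.5% to 26.3% in the remaining 5 libraries, and its Sord level was the middle of the 3; without it the log2 fold change of Sord was -1.35. The labels give no sex. Xist, the X-inactivation RNA, was at 169 CPM in knockout heart 3 and 384 CPM in control heart 1 and at most 2.55 CPM in the other 4, and the Xist-expressing heart was the middle one of its group for Sord in both groups.

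Whole hearts mix cell types, and fewer cells of a type cannot be told apart from less RNA per cell. The 10 ventricular cardiomyocyte markers were all present, with 4 above and 6 below 0 in fold change. They summed to 21147 to 27515 CPM in knockout and 25772 to 30206 CPM in control hearts, ranges that overlapped. Per 1000 CPM of these markers Sord stood at 1.13, 1.25 and 1.01 CPM in knockout hearts and 2.49, 2.73 and 2.60 CPM in control hearts. On this scale the knockout mean was 43.4% of the control mean and the groups did not overlap. This ratio carries the choice of Sord with it and has no test. Fibroblast markers summed to 743 to 918 CPM in knockout and 629 to 736 CPM in control hearts, with all 7 of 7 above 0 in fold change. Macrophage and monocyte markers, again 7 of 7 above 0, summed to 104.6 to 155.6 CPM in knockout and 79.1 to 104.5 CPM in control hearts. The part of these cells in the Sord level was not tested.

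The other lists overlapped between the groups. Endothelial markers, 4 above and 3 below 0 in fold change, summed to 854 to 1823 CPM in knockout and 1099 to 1514 CPM in control hearts. Smooth muscle and pericyte markers, 1 above and 6 below 0, summed to 420.03 to 705 CPM in knockout and 523 to 646 CPM in control hearts. Erythroid markers summed to 3564 to 6853 CPM in knockout and 3043 to 4718 CPM in control hearts, with 6 of 6 above 0 in fold change. Atrial markers summed to 94.5 to 309 CPM in knockout and 124 to 385 CPM in control hearts, and skeletal muscle markers to 391 to 705 CPM in knockout and 692 to 889 CPM in control hearts. Only 1 of the 6 skeletal muscle markers reached the level for testing, so this sum does not measure skeletal muscle tissue. Markers of organs rich in sorbitol dehydrogenase were near 0. Hepatocyte markers summed to 0.948 to 1.20 CPM in knockout and 0.404 to 1.19 CPM in control hearts. Kidney tubule markers summed to at most 0.167 CPM in knockout and 0.0924 CPM in control hearts, with Umod and Slc34a1 at 0 in all 6. Adipocyte markers summed to at most 0.951 CPM in knockout and 1.53 CPM in control hearts.

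**Figure D3:**
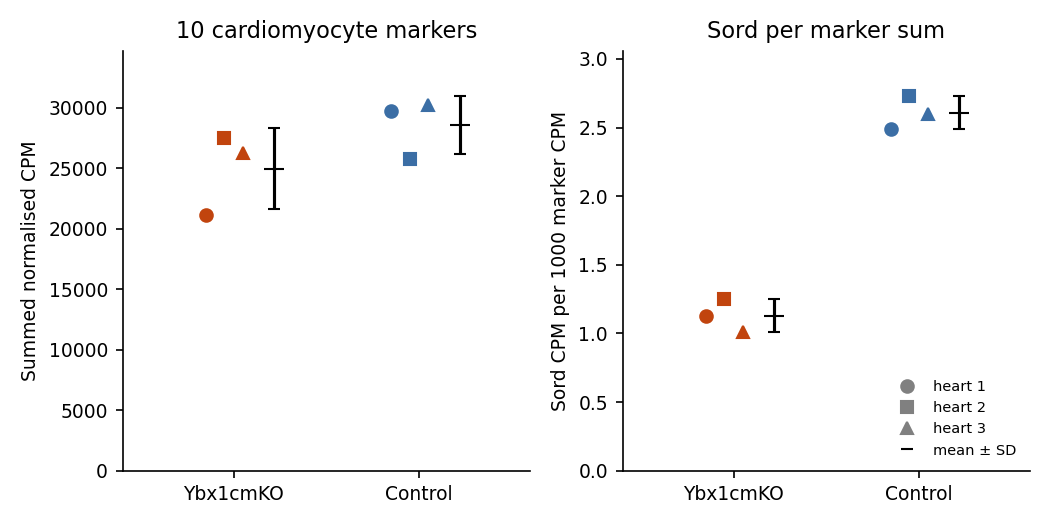
Left, the summed normalised CPM of 10 ventricular cardiomyocyte markers in each heart; right, Sord per 1000 CPM of that sum, with Ybx1cmKO left of Control, axes from 0 and black marks for mean ± SD of 3 hearts. The marker sums overlap, and the ratio is 1.01 to 1.25 in knockout and 2.49 to 2.73 in control hearts.

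The first step of the pathway did not share the low level of Sord. Akr1b1, aldose reductase, had 13.0, 16.3 and 24.5 CPM in knockout hearts and 14.1, 11.3 and 16.3 CPM in control hearts. The groups overlapped, and knockout heart 3 was the highest. Its log2 fold change came to 0.37 with an SE of 0.27 (95% interval -0.23 to 0.97, edgeR adjusted p = 0.694), and to 0.073 without knockout library 3. It was 0.23 when control library 2 was left out and 0.56 when knockout library 1 was. Changes of Akr1b1 in either direction within the 95% interval are compatible with these hearts, and the power to detect them was not measured.

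The balance between the pair of enzymes at the transcript level therefore differed between the groups in the way Sord itself did. Per kilobase of transcript, using the principal transcripts of GENCODE M21 (2352 bases for Sord, 1387 for Akr1b1), Sord stood at 12.0 ± 2.36 CPM per kb in knockout hearts and 31.6 ± 1.71 CPM per kb in control hearts (SD, n = 3 each). Akr1b1 stood at 12.9 ± 4.26 CPM per kb in knockout and 10.01 ± 1.80 CPM per kb in control hearts. The ratio of Sord to Akr1b1 per length was 1.08, 1.24 and 0.639 in knockout hearts 1, 2 and 3 and 3.09, 3.68 and 2.84 in control hearts 1, 2 and 3. In control hearts Sord thus exceeded Akr1b1 in every heart, while in the knockout hearts the pair differed by less than the spread between hearts. The ratio carries the choice of Sord with it and has no test. Oligo(dT) priming can favour the 3' end of transcripts, so levels per length are approximate.

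Related aldo-keto reductases were measured beside aldose reductase. Akr1a1, aldehyde reductase, which works on glucuronate and many aldehydes, had 58.6, 59.5 and 63.1 CPM in knockout hearts and 56.5, 49.7 and 57.0 CPM in control hearts (log2 fold change 0.15, interval -0.23 to 0.53, edgeR adjusted p = 0.751, and 0.079 without control library 2). Its groups did not overlap, by a small margin, with knockout higher. Akr1b8, a mouse reductase first found as induced by fibroblast growth factor, had 2.17, 1.67 and 1.95 CPM in knockout hearts and 1.29, 1.02 and 1.13 CPM in control hearts. These groups did not overlap either, and the log2 fold change was 0.75 (interval 0.071 to 1.42, edgeR unadjusted p = 0.0340, adjusted p = 0.694). Akr1b10 had 5.37, 8.53 and 15.5 CPM in knockout and 10.4, 8.36 and 8.69 CPM in control hearts (log2 fold change 0.11, between -0.40 without knockout library 3 and 0.41 without knockout library 1). Akr1b7 was near 0, with at most 0.0663 CPM in any heart. The 2 genes of 4 tested with groups apart and knockout higher stand against 6.28% of all tested genes, and neither passed edgeR's test over all genes.

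The fructose made by sorbitol dehydrogenase is taken up by ketohexokinase or hexokinase, and none of the genes of this branch stood apart between the groups. Of 20 genes in the list 11 were tested, of which 6 had a log2 fold change above 0 and 5 below 0, with a median of 0.014 against 0.011 over all tested genes. None passed edgeR's quasi-likelihood test at an adjusted p of 0.05 (background 0% of genes), at an unadjusted p of 0.05 or DESeq2's test at an adjusted p of 0.05, and in none did the groups fail to overlap. Over all tested genes 5.14% had an unadjusted p under 0.05, and in 12.1% the groups did not overlap. A count of 0 among 11 genes lies near these shares. In 6 of the 11 the 95% interval lay within 2-fold either way.

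Khk, ketohexokinase, which phosphorylates fructose, had 2.85, 4.78 and 3.06 CPM in knockout hearts and 4.29, 4.16 and 3.85 CPM in control hearts (log2 fold change -0.21, interval -0.81 to 0.40, between -0.48 without knockout library 2 and -0.073 without knockout library 1, and -0.11 without knockout library 3). Knockout heart 2 was above every control and the other 2 below them. Tkfc, triokinase, which phosphorylates glyceraldehyde further down the branch, stood at 0.981 ± 0.328 CPM in knockout and 1.37 ± 0.603 CPM in control hearts (-0.47, interval -1.46 to 0.51, with -0.11 without control library 1, -0.25 without knockout library 2 and -0.73 without control library 2). The fructose transporter Slc2a5 (GLUT5) was near 0 in both groups, at 0.0438 CPM in knockout and 0.0221 CPM in control hearts. Slc2a8 (GLUT8), a transporter of intracellular membranes, stood at 3.60 ± 1.35 CPM in knockout and 2.57 ± 0.649 CPM in control hearts (0.49, interval -0.29 to 1.27, with 0.16 without knockout library 3 and 0.32 without control library 2).

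Hexokinases also phosphorylate fructose, and the groups overlapped for Hk1 and Hk2. Hk2, the main hexokinase of insulin-sensitive muscle, stood at 204 ± 26.9 CPM in knockout and 193 ± 31.5 CPM in control hearts (0.079, interval -0.39 to 0.55, with -0.045 when control library 2 was left out and 0.19 when control library 1 was). Hk1 stood at 22.2 ± 3.46 CPM in knockout and 16.6 ± 5.84 CPM in control hearts (0.42, interval -0.23 to 1.06, with 0.14 without control library 2 and 0.28 without knockout library 3).

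For the genes where the fructose branch meets glycolysis and the hexose phosphates the groups again overlapped. Aldoa, the main aldolase of muscle, stood at 239 ± 67.4 CPM in knockout and 302 ± 56.7 CPM in control hearts (-0.34, interval -0.94 to 0.27, with -0.52 without knockout library 3, -0.13 without knockout library 1 and -0.21 without control library 3). Tpi1, triose phosphate isomerase, stood at 197 ± 50.8 CPM in knockout and 195 ± 13.6 CPM in control hearts (0.014, interval -0.50 to 0.53, between -0.22 without knockout library 2 and 0.16 without knockout library 1). Mpi, mannose phosphate isomerase, stood at 24.2 ± 3.97 CPM in knockout and 22.1 ± 4.04 CPM in control hearts (0.13, interval -0.35 to 0.60, between -0.025 without knockout library 2 and 0.29 without control library 3). Fbp2, the fructose bisphosphatase of muscle, stood at 11.2 ± 4.51 CPM in knockout and 8.24 ± 3.90 CPM in control hearts (0.44, interval -0.44 to 1.33, with 0.050 without knockout library 3, 0.13 without control library 2 and 0.84 without control library 3). The remaining 8 genes of the list, Slc2a2, Slc2a7, Slc2a9, Aldoc, Glyctk, Hk3, Hkdc1 and Fbp1, were below 1 CPM on average in both groups and were not tested.

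The order of levels per kilobase among the 16 tested genes of both lists placed Sord differently in the groups. In knockout hearts Sord was the seventh, at 12.0 CPM per kb, next to Mpi at 13.6 ± 2.23 and Akr1b1 at 12.9 ± 4.26, and these 3 did not differ beyond their spread. In control hearts Sord was the fifth, at 31.6 CPM per kb, behind Hk2 at 35.0 ± 5.71 with which it overlapped, and well above Mpi at 12.4 ± 2.27. Aldoa led in both groups, at 158 CPM per kb in knockout and 200 CPM per kb in control hearts. Tpi1 followed, at 122 in knockout and 121 in control hearts, and then Akr1a1, at 42.5 in knockout and 38.3 in control hearts.

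**Figure D4:**
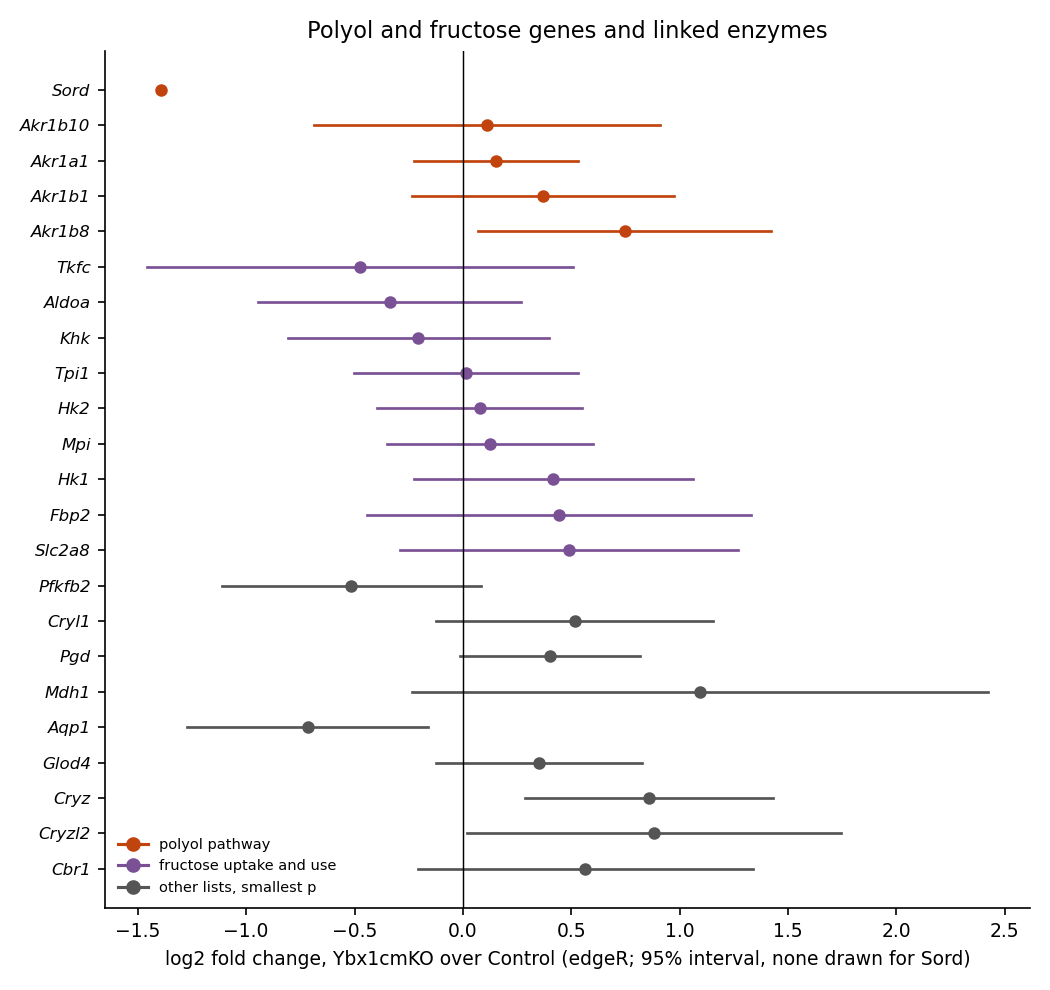
The log2 fold change, Ybx1cmKO over Control, from edgeR's fit for tested genes of the polyol list (orange) and of the fructose list (purple) that the text names, and for the genes with the smallest p of the other lists (grey); points are estimates and lines 95% intervals, with none drawn for Sord, which was chosen by its fold change. The polyol and fructose genes other than Sord lie between -0.47 and 0.75, and the interval crosses 0 in each of them except Akr1b8.

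Across all 10 lists around the pathway 101 of 125 genes other than Sord were tested. None passed an adjusted p of 0.05 in edgeR or in DESeq2. At an unadjusted p of 0.05 edgeR gave 3 higher, Akr1b8, Cryz and Cryzl2, and 1 lower, Aqp1, while over all tested genes 2.69% were higher and 2.45% lower at this level. The groups did not overlap in 6 genes with knockout higher and 3 with knockout lower. Together these were 8.91% of the list genes, against 12.1% of all tested genes (6.28% higher and 5.84% lower). Of the 101 genes 66 had a log2 fold change above 0, or 65.3%, where all tested genes had 51.1%, and their median was 0.15 where all tested genes had 0.011. Leaving out knockout library 3 gave a median of 0.037, and leaving out control library 2 gave 0.044.

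The relatives of Sord among the alcohol and medium-chain dehydrogenases did not share its low level. Cryz, zeta-crystallin, an NADPH-dependent quinone reductase of the same superfamily, had 4.35, 3.19 and 3.78 CPM in knockout hearts and 2.18, 1.85 and 2.19 CPM in control hearts. Each knockout heart was above every control heart, with a log2 fold change of 0.86 (interval 0.29 to 1.43, edgeR unadjusted p = 0.00822, adjusted p = 0.694). Cryzl2, a relative of Cryz, had 2.38, 3.64 and 5.20 CPM in knockout and 1.38, 2.86 and 1.92 CPM in control hearts, and the groups overlapped (0.88, interval 0.018 to 1.75, and 0.56 without knockout library 3). The list had 11 tested genes of 16, of which 6 were above and 5 below 0, with a median of 0.058. Among the aldehyde and short-chain dehydrogenases 7 of 11 were above 0, and the smallest p was that of Cbr1, carbonyl reductase, at 7.57 ± 3.07 CPM in knockout and 5.11 ± 1.58 CPM in control hearts (0.57, interval -0.21 to 1.34, with 0.17 without knockout library 3 and 0.33 without control library 2).

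Sorbitol is also an osmolyte, and genes of osmolyte handling were measured for that reason. Aqp1, a water channel of the endothelium, had 122, 145 and 92.6 CPM in knockout hearts and 166, 246 and 179 CPM in control hearts. The groups did not overlap, and the log2 fold change was -0.72 (interval -1.27 to -0.16, edgeR unadjusted p = 0.0172, adjusted p = 0.694). Of the 10 tested genes of this list 4 were above and 6 below 0. The summed endothelial markers given above overlapped between the groups, and the part of endothelial cells in the Aqp1 level was not tested.

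The cofactor pathways on either side of Sord gave no call. In the list of the pentose phosphate pathway and NADPH 9 of 12 tested genes were above 0. Its smallest p was that of Pgd, phosphogluconate dehydrogenase, with 12.03, 10.5 and 10.3 CPM in knockout hearts and 7.93, 7.58 and 9.22 CPM in control hearts (0.40, interval -0.011 to 0.82, edgeR adjusted p = 0.694), and its groups did not overlap. In the list of NADH shuttles and NAD synthesis 14 of 19 were above 0. Mdh1, cytosolic malate dehydrogenase, had 126, 228 and 724 CPM in knockout hearts and 173, 105.4 and 227 CPM in control hearts, and its log2 fold change of 1.09 was 0.069 without knockout library 3.

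The glucose and fructose 6-phosphate list had 9 of 15 genes above 0, with the smallest p in Pfkfb2, the heart form of the enzyme that sets fructose 2,6-bisphosphate. Pfkfb2 had 24.8, 29.01 and 14.1 CPM in knockout hearts and 30.1, 33.6 and 33.001 CPM in control hearts (-0.51, interval -1.11 to 0.083, and -0.26 without knockout library 3). In the glucuronate and xylulose list 3 of 4 were above 0, among them Cryl1, gulonate dehydrogenase, at 4.35 ± 0.970 CPM in knockout and 3.03 ± 0.742 CPM in control hearts (0.52, interval -0.12 to 1.15, and 0.33 without knockout library 3). In the glycation defence list all 5 tested genes were above 0, with a median of 0.23, and the smallest p was that of Glod4, a glyoxalase-domain protein, at 13.6 ± 2.68 CPM in knockout and 10.6 ± 1.10 CPM in control hearts (0.35, interval -0.12 to 0.83).

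None of the tested genes around Sord on chromosome 2 stood apart between the groups as Sord did. In GENCODE M21 the principal transcript of Sord has 9 exons, and no other gene of the deposited table placed by that annotation overlaps Sord. Genes of the table absent from GENCODE M21 had no position and were not checked. Of 20 genes of the table placed within 250 kb on either side of Sord, 12 were below 1 CPM in both groups, 6 of them at 0 counts in all hearts. The nearest gene after it, Duox2, a dual oxidase on the other strand, was at 0.154 CPM in knockout and 0.156 CPM in control hearts. The nearest before it, the pseudogene Rps12-ps10, whose sequence is close to that of Rps12 so that its count is uncertain, stood at 11.1 ± 2.18 CPM in knockout and 11.4 ± 2.25 CPM in control hearts (log2 fold change -0.050, and 0.12 with library totals alone). The groups overlapped in each of the 7 tested neighbours. Over all tested genes the groups did not overlap in only 12.1%, so nothing about the neighbourhood is read from this. The log2 fold changes of the 7 neighbours ran from -0.71 in Shf (interval -1.57 to 0.15) to 0.085 in Eif3j1 (interval -0.29 to 0.46). The interval of Shf is wide enough to hold a change as large as that of Sord.

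The genes most like Sord over the 6 libraries were Tln2, Ubxn6, Zfp871, Nomo1 and Ano4, by Pearson's r of log2(normalised CPM + 0.5). Their r was 0.989, 0.986, 0.986, 0.985 and 0.985, and 91 tested genes had an r above 0.9. The 6 points share libraries and depth and fall into the 2 groups, so r mostly restates that the genes were lower in the knockout hearts. After the group means were taken out, r with Sord was 0.944 for Tln2, 0.906 for Ubxn6, 0.800 for Zfp871, 0.783 for Nomo1 and 0.673 for Ano4. The choice of these genes by r over the same libraries favours high values here too, so these values are no separate support. The order among such genes was loose: without any 1 library between 0 and 3 of these 5 remained among the 5 highest, and none did by deviations from the group means.

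Tln2, talin 2, which links integrins to actin, had 23.8, 28.4 and 24.7 CPM in knockout hearts and 35.3, 35.4 and 39.1 CPM in control hearts. Nomo1, a membrane protein of the endoplasmic reticulum, had 19.8, 25.2 and 21.6 CPM in knockout hearts and 37.9, 39.4 and 35.7 CPM in control hearts. Like Sord, both were highest in heart 2 among the knockout hearts, as were Ubxn6, Zfp871 and Ano4. The choice of these genes by r favours this. Ubxn6, a cofactor of the ATPase VCP, stood at 23.1 ± 2.58 CPM in knockout and 32.9 ± 0.570 CPM in control hearts, the zinc finger gene Zfp871 at 32.5 ± 2.64 CPM in knockout and 45.6 ± 1.53 CPM in control hearts, and the anoctamin gene Ano4 at 2.16 ± 0.0656 CPM in knockout and 3.30 ± 0.0838 CPM in control hearts. Their log2 fold changes of -0.76 to -0.49 were smaller in size than that of Sord.

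The lowest r belonged to Erlin1 (-0.983), Brox (-0.980) and Ptges3 (-0.978). Erlin1, a protein of the endoplasmic reticulum membrane, had 10.2, 9.48 and 10.7 CPM in knockout hearts and 7.85, 7.58 and 7.36 CPM in control hearts. Brox, a BRO1-domain protein, stood at 15.6 ± 0.824 CPM in knockout and 12.1 ± 0.505 CPM in control hearts. Ptges3, the HSP90 co-chaperone p23, stood at 117 ± 2.25 CPM in knockout and 101.3 ± 0.671 CPM in control hearts.

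**Figure D5:**
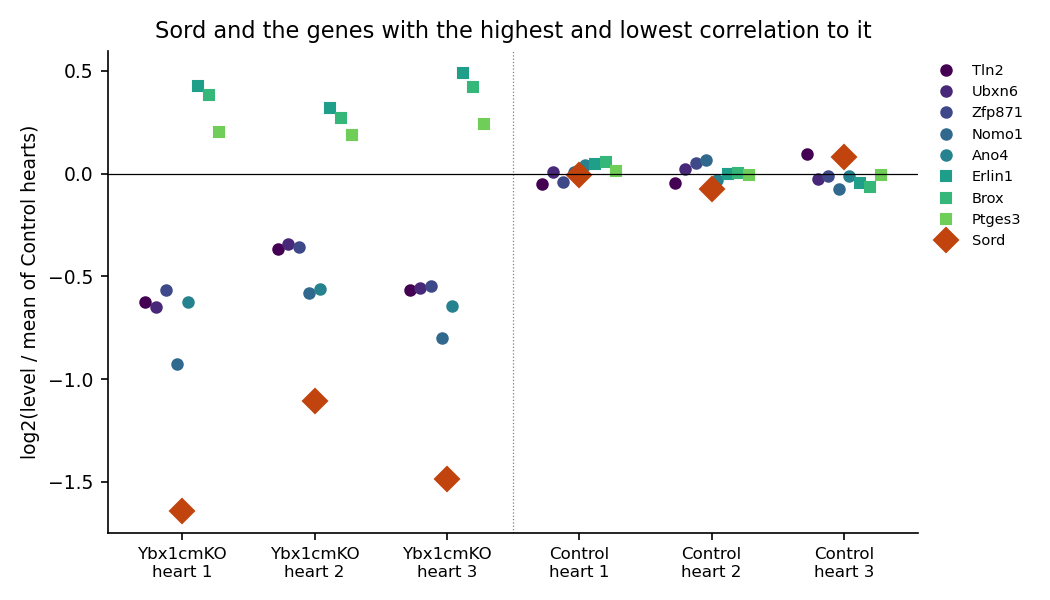
Level in each heart relative to the mean of the control hearts, on a log2 scale, for Sord (diamonds), the 5 genes with the highest Pearson correlation to it over 6 libraries (circles) and the 3 with the lowest (squares), with Ybx1cmKO hearts left of Control hearts; points are offset sideways for clarity. Sord lies below the 5 genes in every knockout heart, and all of these genes lie near 0 in the control hearts.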

How the data were processed

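RNA of 3 Ybx1cmKO and 3 Control hearts was sequenced, 1 library per heart. The submitters' processing notes list edgeR 4.0.16, Subread 2.1.1, featureCounts, SAMtools 1.22.1 and STAR 2.7.11 without roles, and the build mm39. The authors deposited estimated counts per gene, of which 21.3% to 22.7% of the detected genes per library had a fraction of a read, and CPM, which matched the counts scaled by each column's sum. The deposited counts were rounded to whole numbers and tested with edgeR 4.0.16 (quasi-likelihood, TMM, R 4.3.3), Benjamini-Hochberg adjusted at 0.05 over the 13717 genes that reached a CPM of 1 in 3 or more libraries. Alternatives were DESeq2 1.42.0, limma 3.58.1 on log2(CPM + 0.5) and log2(CPM + 2), other scalings, no filter, a replicate block, Xist expression as a covariate and leaving out each library. The CPM given to limma were scaled by library totals alone, without TMM. P-values measure the spread between these hearts. With 3 hearts a group, an exact permutation p could be no smaller than 0.1, and none was computed.

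Sord and the gene lists were chosen with earlier results of these data known. Named genes were all tested genes of the polyol and fructose lists, in other lists those at an unadjusted p under 0.05 or else the smallest p, the 5 highest and 3 lowest correlations with Sord, Ybx1 and the nearest genes on either side; some genes that this rule names are not reported here, but they stay in the counts of their list. The list gene under 2 gene IDs, Nnt, was left out. Promoter windows are RefSeq's on GRCm38.p6, and transcript lengths GENCODE M21's. The edgeR step was tested on simulated data with a smaller spread between libraries than these hearts had, so its power here was not measured. The sources used here give no annotation release, strand setting or handling of reads with several places.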

Additional observations from a re-analysis of the deposited data

How the results depend on the processing

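The log2 fold change of Sord moved by less than the SD between hearts (0.20) under every alternative run, from -1.57 without knockout library 2 to -1.20 in limma-trend on log2(CPM + 2), and by leaving out a library from -1.57 to -1.29. Library totals alone moved the median log2 fold change of all genes to 0.17, against 0.011 with TMM, and relative to that median Sord stood at -1.43. Limma-trend, also run without TMM, gave medians of 0.14 on log2(CPM + 0.5) and 0.12 on log2(CPM + 2). Over all genes edgeR called 0, with 705 at an unadjusted p under 0.05, against 15 in DESeq2, 133 without a filter on low counts, 5 with the replicate block and 0 to 3 without a library. Pathway genes at an unadjusted p under 0.05 were 4, against 10 without the filter and 9 with the replicate block. Without a library they were 2 to 14 (14 without knockout library 1, 2 without control library 2). The share of all tested genes at this level moved as well. It was 5.14% in the main fit, 7.48% without the filter and 13.2% with the replicate block. Without knockout library 1 it was 12.7%, and without control library 2 it was 1.46%. Without the filter Mdh1 also passed over all genes. Of the 5 genes most like Sord, 0 to 3 remained without a library (0 without knockout library 1 or 3) and 0 by deviations from the group means. Directions turned for Rps12-ps10 (0.12 with library totals, 0.10 and 0.092 in limma-trend, -0.16 to 0.11 without a library), Tpi1 (-0.015 with the replicate block, -0.013 with Xist, -0.22 to 0.16 without a library), and, without a library, Hk2 (-0.045 to 0.19), Mpi (-0.025 to 0.29) and Akr1b10 (-0.40 to 0.41). The cause was not tested. For the pairing, deviations of same-numbered hearts correlated at -0.11, 0.45 and 0.58, and 3 of 6 hearts correlated best with their own number, so the numbers were not taken to pair the hearts. Fold changes of genes near 1 CPM are limited by depth.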
